A study of Mus musculus with 3 samples.

Results

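The endothelial cells of mouse dorsal skin were profiled in 3 single-cell RNA sequencing libraries, a single one per age. The ages were neonatal, 3 weeks and 2 months, and the study's design speaks of neonatal, young adult and mature adult mice. All were C57BL/6, with no genotype or treatment given. Skin was minced and digested with collagenase D and DNase, with no sort stated, and transcripts were tagged at their 3' ends in droplets with unique molecular identifiers (UMIs, which count captured molecules). How many animals, and of which sex, went into a library is not stated. The libraries hold 84086755, 113874172 and 98432611 UMIs in 8452, 10226 and 10190 barcodes.

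Barcodes entered with no fewer than 300 genes and 500 UMIs and with mitochondrial RNA making up 10% of UMIs or less. A barcode was taken as endothelial when at least 3 of 8 genes had a UMI and Ptprc, the CD45 antigen of blood cells, had none. The 8 genes are Pecam1 and Cdh5 (adhesion molecules of endothelial junctions), Kdr and Flt1 (VEGF receptors), Emcn (endomucin, a surface sialomucin), Egfl7 (a secreted endothelial factor), Cldn5 (a tight junction claudin) and Plvap (the protein of fenestral and caveolar diaphragms). Together 226 barcodes met the rule, of 26143 kept. These were 57 of 7911 neonatal barcodes, 0.721% with a Clopper-Pearson 95% interval of 0.546 to 0.933%. At 3 weeks they were 122 of 8900, 1.37% (1.14 to 1.63%). At 2 months they were 47 of 9332, 0.504% (0.370 to 0.669%). The 3 week share lay above both others beyond counting error, and the neonatal and 2 month intervals overlapped. All intervals here cover counting error only. As each age has 1 library, no replicate check exists, so no difference between ages carries a p-value. Age cannot be told apart from animal or library, nor, between the neonatal and the later libraries, from sex. The cells were picked by measured transcripts, so values of the same cells are given as a description.

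Endothelium lines blood vessels and lymphatic vessels. Blood endothelium is ordered into arteries, capillaries and veins, carries VEGF receptors and supplies the skin with oxygen and lipids. Lymphatic endothelium drains fluid and guides immune cells towards lymph nodes. It keeps its identity through the transcription factor Prox1, responds to VEGF-C through Flt4 (VEGFR-3), and secretes the chemokine Ccl21, which draws dendritic cells into the vessel.

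The promoters below were chosen to show the regulatory sequence beside 2 genes of the selection rule and the 2 lymphatic genes. ETS-family factors such as Erg and Fli1 are known regulators of endothelial genes. The ETS core was searched on both strands as CCGGAA or CAGGAA, in the 250 bases before each start, from RefSeq promoters of build GRCm38.p6. Either form was present in 34.9% of all 27025 promoters, in 12 of the 18 pan-endothelial genes that had a promoter in the table (of 35 listed), in 3 of 5 selection genes (of 8), and in 8 of 16 lymphatic genes (of 20). A second motif, AACAAT of the SOX family, was present in 9.65% of all promoters, 3 of the 18, 1 of the 5 and 2 of the 16. These are letter matches in a fixed window and not binding sites. The sequences run 5' to 3' on the gene's own strand, with the ETS letters in capitals, and the Prox1 window holds neither form. The Egfl7 window is chr2:26580833-26581082 on the plus strand, that of Emcn chr3:137340828-137341077 on the plus strand, that of Prox1 chr1:190170828-190171077 on the minus strand and that of Mmrn1 chr6:60944067-60944316 on the plus strand.
Egfl7: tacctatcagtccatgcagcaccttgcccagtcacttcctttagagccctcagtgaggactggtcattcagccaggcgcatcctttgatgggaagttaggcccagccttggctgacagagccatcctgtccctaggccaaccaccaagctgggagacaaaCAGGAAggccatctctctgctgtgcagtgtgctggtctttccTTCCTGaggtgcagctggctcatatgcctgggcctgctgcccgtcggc
Emcn: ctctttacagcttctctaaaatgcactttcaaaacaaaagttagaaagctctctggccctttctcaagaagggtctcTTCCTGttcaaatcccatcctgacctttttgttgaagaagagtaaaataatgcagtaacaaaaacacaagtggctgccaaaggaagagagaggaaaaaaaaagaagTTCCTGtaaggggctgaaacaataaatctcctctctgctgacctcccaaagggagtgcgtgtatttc
Prox1: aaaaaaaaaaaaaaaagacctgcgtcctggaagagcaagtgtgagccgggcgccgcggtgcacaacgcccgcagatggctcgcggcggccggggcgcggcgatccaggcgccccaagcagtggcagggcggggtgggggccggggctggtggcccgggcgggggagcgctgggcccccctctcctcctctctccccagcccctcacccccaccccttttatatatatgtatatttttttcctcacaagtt
Mmrn1: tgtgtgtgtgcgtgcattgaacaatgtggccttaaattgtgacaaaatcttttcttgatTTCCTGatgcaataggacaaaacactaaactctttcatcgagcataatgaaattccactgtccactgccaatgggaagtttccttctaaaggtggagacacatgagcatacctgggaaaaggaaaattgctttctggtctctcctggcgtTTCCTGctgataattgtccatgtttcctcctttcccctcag

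Most members stood well inside the rule, and those at its lower edge were mixed. Members with 6 to 8 of the selection genes numbered 42, 88 and 34 in the neonatal, 3 week and 2 month libraries. Those with 4 or 5 numbered 3, 19 and 8, and those with exactly 3 numbered 12, 15 and 5. Tie1, an endothelial receptor kinase that the rule did not use, had a UMI in 41 of 42, 84 of 88 and 27 of 34 members with 6 to 8 genes. At exactly 3 genes it had one in 0 of 12, 5 of 15 and 2 of 5. Pdgfra, a receptor of fibroblasts, had a UMI in 10 of 12, 8 of 15 and 3 of 5 members with exactly 3 genes, against 5 of 42, 6 of 88 and 1 of 34 with 6 to 8. Just outside the rule, barcodes with 2 selection genes numbered 122, 125 and 60, with Pdgfra in 92, 97 and 33 of them and Tie1 in 0, 1 and 2. Of a further 35 pan-endothelial genes, a median of 26, 26 and 23 were detected per member with 6 to 8 selection genes, against 6.5, 7 and 9 in members with exactly 3. A Prox1 or Mmrn1 UMI, of the lymphatic genes described below, was present in 3 of 12, 6 of 15 and 2 of 5 members with exactly 3 genes, and 0, 5 and 2 of these also held Ccl21a. Some members with exactly 3 genes therefore carried endothelial RNA beyond the rule, and others carried Pdgfra and no Tie1. Age comparisons below rest on members with 6 to 8, a limit set after the values were seen, with the counts of each main gene list over all members beside them.

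**Figure D1:**
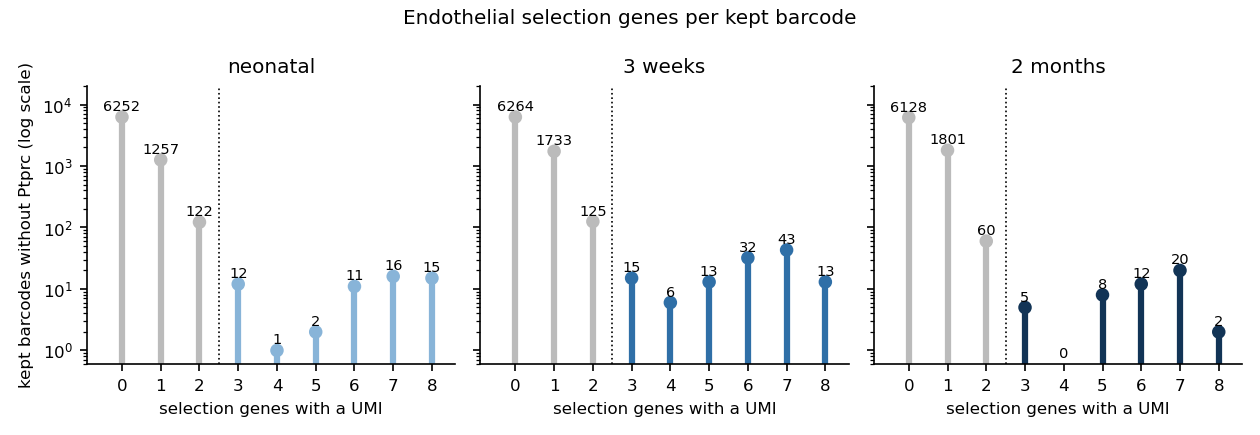
Number of kept barcodes without a Ptprc UMI (vertical axis, log scale) by how many of the 8 selection genes had a UMI (horizontal axis), 1 panel per library; members lie right of the dotted line. The barcodes form a second peak at 7 genes, separated from the bulk of the library by few barcodes with 4 genes (1 neonatal, 6 at 3 weeks and 0 at 2 months).

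Depth differed between ages. Members had median UMI counts of 18049 (range 3857 to 136565) in the neonatal library, 15796 (1726 to 60105) at 3 weeks and 8532 (2170 to 56796) at 2 months. All kept barcodes had medians of 8685, 11142.5 and 8529.5. Mitochondrial shares of members had medians of 4.39, 2.75 and 2.89%. No member barcode was shared between libraries, although 27 to 35 barcodes of any kind were. Immune markers were close to absent, with summed levels of 7.89, 12.8 and 9.05 CPM (UMIs scaled to a common total per library) over the 9 listed genes. The rule itself required no Ptprc UMI, which left out 0, 1 and 2 barcodes that otherwise met it. Fibroblast markers were present at all ages, summing to 5698, 20269 and 7022 CPM over members.

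Members were set against all other kept barcodes of their library as summed CPM, which is not divided by gene length because each transcript is tagged once at its 3' end. The selection genes and every gene in the same cells follow from the choice, so nothing is tested. Of 9663 genes with 30 or more UMIs over the members, 914 were at least 2-fold higher in members in each of the 3 libraries, 9.46%. Of 35 pan-endothelial genes 30 were. The 5 that were not are Cd34, Clec14a, Ctla2a, Cav1 and Ets2.

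The defining markers of the label were far above the rest of the skin. Pecam1 stood at 473, 485 and 561 CPM in neonatal, 3 week and 2 month members, against 1.48, 1.19 and 1.14 CPM in the other barcodes. Cdh5 stood at 426, 389 and 399.7 CPM, against 1.61, 0.709 and 0.303 CPM. These levels moved little with age.

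Egfl7 stood at 919, 653 and 624 CPM in members, against 2.21, 1.43 and 1.12 CPM in the other barcodes. Emcn stood at 244, 200 and 281 CPM, against 0.0377, 0.103 and 0.146 CPM. Plvap was the least exclusive of the 8, at 194, 302 and 498 CPM in members, against 8.07, 21.1 and 40.6 CPM. It was higher in members and in the rest of the skin at each later age.

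Among pan-endothelial genes, Tie1 stood at 406, 366 and 244 CPM in members, with a UMI in 43 of 57, 103 of 122 and 34 of 47, against 0.0879, 0.177 and 0.199 CPM in the other barcodes. Ramp2, the partner of the adrenomedullin receptor, stood at 578, 627 and 480 CPM. Robo4, a guidance receptor of endothelium, stood at 55.2, 51.3 and 55.8 CPM. Among genes outside the lists, the 15 with the highest lowest ratio over the 3 libraries were Ushbp1, Klhl4, Btnl9, Tmem252, Gpr182, Ccm2l, She, Hoxd10, Cxcl17, C1qtnf9, Adgrf5, Pcdh12, Syt15, Duox2 and Pgc. Hoxd10, a homeobox factor, stood at 186, 190 and 158 CPM in members and at 0.515, 0.168 and 0.293 CPM elsewhere.

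Members with lymphatic transcripts outnumbered those without at 3 weeks and 2 months, and in the neonatal library only when cells were not thinned. A UMI of Prox1 or Mmrn1 (multimerin 1) was present in 33 of 57 neonatal members, 57.9% (44.1 to 70.9%). It was present in 86 of 122 at 3 weeks, 70.5% (61.6 to 78.4%), and in 34 of 47 at 2 months, 72.3% (57.4 to 84.4%). The 3 intervals overlapped, so no order of the ages can be read at this number of cells. After thinning each cell to 1500 UMIs the Prox1 or Mmrn1 shares were 43.9% (30.7 to 57.6%), 62.3% (53.1 to 70.9%) and 68.1% (52.9 to 80.9%), and no member was left out as shallower. Among members with 6 to 8 selection genes the Prox1 or Mmrn1 shares were 66.7% (50.5 to 80.4%), 73.9% (63.4 to 82.7%) and 70.6% (52.5 to 84.9%).

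Free RNA in droplets can place a UMI in any cell, so keratinocyte barcodes, which should lack both genes, give the background. Prox1 or Mmrn1 had a UMI in 14 of 307 neonatal keratinocyte barcodes, 4.56%, in 7 of 1482 at 3 weeks, 0.472%, and in 17 of 1852 at 2 months, 0.918%. Their median depths were 17416, 12121 and 10881.5 UMIs, near those of the members. Thinned to 1500 UMIs, 0 of 304 (up to 0.987%), 0 of 1481 (up to 0.203%) and 1 of 1842 (0.0543%) held Prox1 or Mmrn1. The members stood far above this background at each age.

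**Figure D2:**
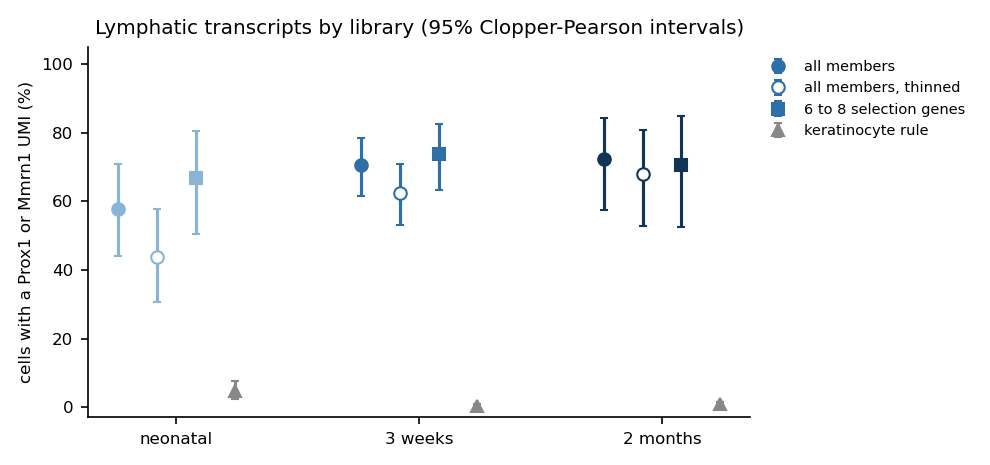
Percent of cells with a Prox1 or Mmrn1 UMI (vertical axis) in each library (horizontal axis), with 95% Clopper-Pearson intervals. Circles are all members (open after thinning), squares are members with 6 to 8 selection genes and grey triangles are keratinocyte barcodes; the members lie between 43.9 and 73.9%, the keratinocyte barcodes at or below 4.56%.

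Other lymphatic genes followed the pair in most cells. Of Ccl21a, Lyve1, Flt4 and Reln, at least 2 had a UMI in 27 of 33, 84 of 86 and 30 of 34 members with a Prox1 or Mmrn1 UMI. In members with neither, at least 2 of these 4 had one in 0 of 24, 1 of 36 and 0 of 13. Both Prox1 and Mmrn1 were found together in 25, 76 and 27 members. Members with a UMI of the pair are called lymphatic below, and those with neither are called blood members, a name that rests on the absence of the pair. A 2 month blood member with 6 selection genes and 3698 UMIs held 2 Flt4 UMIs and none of Flt1. Values without that member were not computed. The name lymphatic does not hold for every cell. Among members with 6 to 8 selection genes, 4 neonatal members and 1 at 3 weeks had a Prox1 UMI but none of Mmrn1, Ccl21a or Lyve1. All 5 had a UMI of Flt1, a gene of blood endothelium, and they held 7 Prox1 UMIs in the neonatal library and 1 at 3 weeks. They are called Prox1-only members, and values without them, an alternative chosen after the values were seen, stand beside some of the results that they change.

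Within members with 6 to 8 selection genes, 28, 65 and 24 were lymphatic and 14, 23 and 10 were blood members. Summed UMIs were 1181846, 1344047 and 348534 in lymphatic members, against 195172, 306241 and 100075 in blood members. Median UMIs per cell were 34413.5, 18337 and 7534.5 in lymphatic members, against 9994, 13069 and 8764 in blood members. Numbers of cells with a UMI below were not taken at equal depth, so their order over the ages may follow depth in part. Mural cells wrap blood vessels, and at least 3 mural genes had a UMI in 3 of 14, 11 of 23 and 5 of 10 of these blood members. Rgs5, a pericyte gene, stood at 29.6, 78.9 and 0 CPM in lymphatic members, against 287, 2638 and 889 CPM in blood members. The neonatal Rgs5 UMIs of lymphatic members (35) lay in a Prox1-only member. Those at 3 weeks lay in a Prox1-only member (11) and in another member that also held Flt1 (95). Lymphatic members carried such marks of another cell type (3 mural genes, a Pdgfra UMI or 10 keratin UMIs) in 5 of 28, 9 of 65 and 2 of 24. The part of these RNAs in the values below was not tested unless a value without those cells is given.

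Over all members, 285 of 9663 genes were at least 2-fold higher in lymphatic members than in blood members in each library, 2.95%, and 485 were at least 2-fold lower, 5.02%. Of 17 measured genes of the lymphatic list (18 named), 15 were higher: Nrp2, Cp, Ccl21a, Pdpn, Sema3d, Fgl2, Reln, Lyve1, Nts, Maf, Foxc2, Stab1, Itga9, Flt4 and Tbx1. The lower genes include the fibroblast markers Dpt, Pdgfra and Mfap5. The fibroblast list as a whole summed to 1475, 17894 and 10133 CPM in lymphatic members, against 18802, 25989.6 and 1854 CPM in blood members, so its order was the other way at 2 months. Levels below are for members with 6 to 8.

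Prox1, the lymphatic identity factor, stood at 432, 758 and 712 CPM in neonatal, 3 week and 2 month lymphatic members, and Mmrn1 at 1166, 2649 and 1928 CPM. Both were at 0 in blood members by definition. Flt4, the VEGF-C receptor, stood at 370, 710 and 545 CPM in lymphatic members, against 10.2, 19.6 and 50.0 CPM in blood members. It had a UMI in 24 of 28, 64 of 65 and 24 of 24 lymphatic members. Nrp2, its coreceptor, stood at 341, 382 and 301 CPM in lymphatic members, against 97.4, 118 and 79.9 CPM in blood members.

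Ccl21a, the chemokine that guides dendritic cells, reached 9790, 28957 and 13654 CPM in lymphatic members, against 0, 0 and 0 CPM in blood members. The mouse genome holds near-identical copies of this gene, among which counting could split reads, so its level is uncertain. Single lymphatic members ranged widely, with a median of 8556 and a highest value of 25884 CPM for Ccl21a in the neonatal library. At 3 weeks the median was 21794 and the highest 100393 CPM, and at 2 months 11805 and 68562 CPM. Ccl21a had no UMI in 6, 5 and 4 lymphatic members.

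Lyve1, a hyaluronan receptor of initial lymphatic vessels, stood at 1911, 1652 and 648 CPM in lymphatic members, against 0, 3.27 and 0 CPM in blood members. Its UMIs were found in 24 of 28, 47 of 65 and 11 of 24 lymphatic members, counted at unequal depth. Cells therefore split into those with and without Lyve1 at the later ages, and the median cell stood at 1874, 978 and 0 CPM. The highest 2 month cell held 10638 CPM of Lyve1. Its level at 2 months was 1.35 lower on the log2 scale than at 3 weeks in summed counts but 0.06 lower as a mean over cells, so this difference rests on how cells are weighted.

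Foxc2, a factor of lymphatic valves, stood at 44.0, 111 and 80.3 CPM in lymphatic members, against 5.12, 9.80 and 39.97 CPM in blood members. Itga9, an integrin of valve cells, stood at 66.0, 207 and 132 CPM, against 15.4, 45.7 and 50.0 CPM. Reln, the secreted protein reelin, stood at 407, 798 and 519 CPM in lymphatic members and had no UMI in blood members.

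Angpt2, a ligand of the Tie2 receptor, stood at 187, 185 and 68.9 CPM in lymphatic members, against 20.5, 29.4 and 29.98 CPM in blood members. Tie1 was also the higher in lymphatic members, at 520, 505 and 362 CPM, against 205, 248 and 160 CPM. The VEGF and angiopoietin list was counted over all members. Of 16 measured genes, 4 were at least 2-fold higher in lymphatic members in each library (Nrp2, Tie1, Angpt2 and Flt4) and 2 were lower (Vegfc and Nrp1). Of all genes 2.95% were higher and 5.02% lower.

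By rule, the 10 genes outside the lists with the highest ratio were Slc45a3, Adgrg3, Gmfg, Cldn11, Lcn2, Prkcz, Dtx1, Sh3gl3, Tc2n and Susd4. Slc45a3, a solute carrier, stood at 283, 311 and 275 CPM in lymphatic members and had no UMI in blood members. Dtx1, a regulator of Notch signalling, stood at 245, 276 and 336 CPM and had none either. Cldn11, a claudin, stood at 75.3, 175 and 152 CPM, again with none. Lcn2 encodes lipocalin 2, an iron-siderophore binding protein of innate defence. It stood at 232, 937 and 924 CPM in lymphatic members, against 5.12, 0 and 20.0 CPM in blood members, and at 7.06, 0.775 and 3.24 CPM in the other barcodes. Its UMIs were found in 26 of 28, 60 of 65 and 22 of 24 lymphatic members, so its level there did not come from a few cells. At 2 months Lcn2 had a UMI in 1 of 10 blood members, the member described above with Flt4 and no Flt1.

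Part of the capillary and arterial genes were lower in lymphatic members. Over all members, 4 of 11 measured capillary genes (Tcf15, Cd36, Cxcl12 and Rgcc) were at least 2-fold lower in lymphatic members in each library and 1 was higher (Sgk1). Of 15 measured arterial genes, 5 were lower (Alpl, Hey2, Vegfc, Nrp1 and Sema3g) and 2 were higher (Stmn2 and Efnb2). Within members with 6 to 8 selection genes the arterial list summed to 1115, 1524 and 1423 CPM in lymphatic members, against 1117, 2668 and 3327.5 CPM in blood members, so the neonatal sums were alike.

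Flt1, the VEGF receptor that binds VEGF-A most tightly, stood at 47.4, 29.8 and 0 CPM in lymphatic members, against 553, 731 and 789 CPM in blood members. It had a UMI in 5 of 28, 5 of 65 and 0 of 24 lymphatic members, against 13 of 14, 22 of 23 and 9 of 10 blood members. The 4 neonatal Prox1-only members held 55 of the 56 neonatal Flt1 UMIs of lymphatic members, and without Prox1-only members Flt1 stood at 0.938, 15.8 and 0 CPM there. Flt1 is a selection gene, so blood members could enter through it more often than lymphatic members.

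Sox17, a factor of arterial endothelium, stood at 33.0, 6.70 and 0 CPM in lymphatic members, against 236, 189 and 420 CPM in blood members. Fabp4, a fatty acid carrier of capillaries, stood at 1655, 306 and 1211 CPM, against 8690, 4663 and 3477 CPM. A single neonatal blood member held 57% of the Fabp4 UMIs of its group, so the mean says little of the other 13. Cd36, a fatty acid transporter, stood at 233, 45.4 and 43.0 CPM in lymphatic members, against 958, 500 and 270 CPM in blood members. Without Prox1-only members the neonatal and 3 week lymphatic levels were 1187 and 228 CPM for Fabp4 and 183 and 35.4 CPM for Cd36.

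Ly6c1, a surface antigen of blood endothelium, stood at 50.8, 46.1 and 14.3 CPM in lymphatic members, against 517, 2041 and 2588 CPM in blood members. Vwf, the platelet-binding von Willebrand factor, stood at 44.8, 12.7 and 5.74 CPM, against 174, 222 and 310 CPM. Rgcc, a cell cycle regulator found in capillaries, stood at 44.8, 15.6 and 2.87 CPM, against 502, 251 and 410 CPM. Notch4, a receptor of arterial endothelium, stood at 1.69, 2.98 and 0 CPM, against 30.7, 65.3 and 59.96 CPM. All 4 had lower levels in lymphatic members in each library. Without Prox1-only members the neonatal lymphatic levels were 1.88 CPM for Ly6c1, 3.75 CPM for Vwf, 5.63 CPM for Rgcc and 11.3 CPM for Sox17, and the 3 week level of Vwf was 8.29 CPM. The higher neonatal lymphatic levels of Vwf and Rgcc thus rested on these cells.

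**Figure D3:**
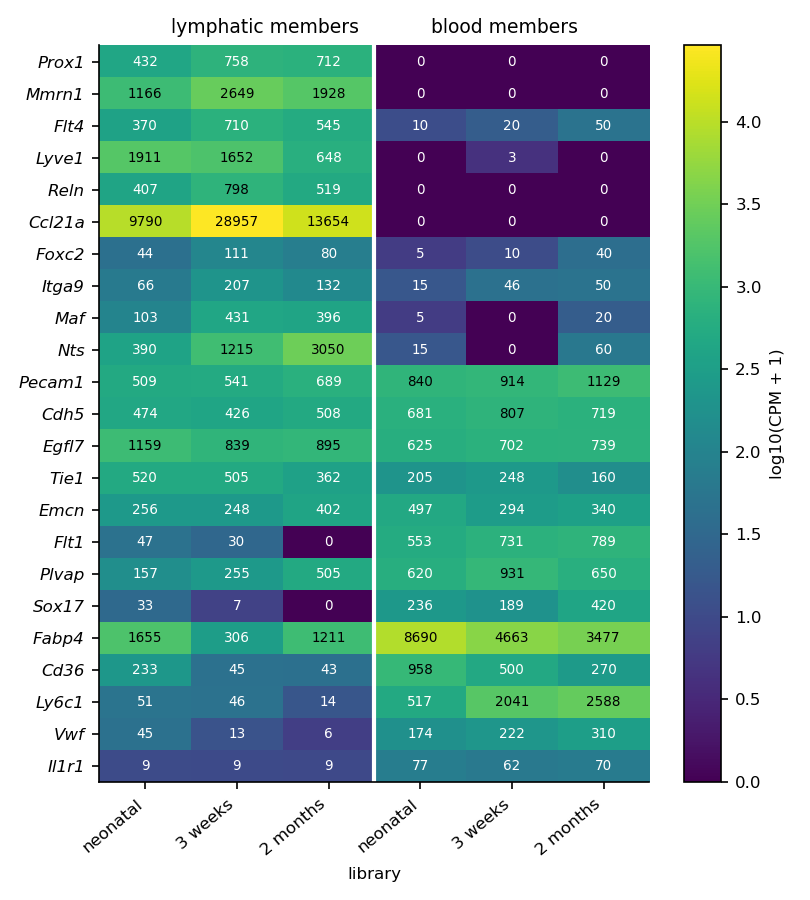
Summed CPM of 23 genes (rows) in lymphatic members (left) and blood members (right) with 6 to 8 selection genes, by library (columns); colour is log10(CPM + 1) and the printed numbers are CPM. Prox1 to Nts are high on the left, Flt1 and Sox17 to Il1r1 on the right, and Pecam1, Cdh5 and Egfl7 are present in both.

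The interleukin 1 and WNT genes were also read, because they act in skin inflammation and vessel growth. Il1r1, the signalling receptor of interleukin 1, stood at 9.31, 8.93 and 8.61 CPM in lymphatic members, against 76.9, 62.0 and 69.9 CPM in blood members and 35.5, 33.6 and 36.5 CPM in the other barcodes. Counted over all members, 14 interleukin 1 genes (20 named) were measured. Il1r1 was the only one at least 2-fold lower in lymphatic members in each library, and none was higher, where 5.02% of all genes were lower. Without Prox1-only members the neonatal lymphatic level of Il1r1 was 3.75 CPM. Il1r1 was found in 5 of 14, 8 of 23 and 3 of 10 blood members, and it stood at 86.7, 56.4 and 51.3 CPM in mural barcodes, whose markers the blood members share in part.

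Compared with the other barcodes, 2 of 14 interleukin 1 genes were at least 2-fold higher in members in each library, Irak2 and Sigirr, where 9.46% of all genes were. Irak2, a kinase below the receptor, stood at 34.7, 25.3 and 34.4 CPM in lymphatic members, 20.5, 52.2 and 59.96 CPM in blood members and 2.78, 4.47 and 5.73 CPM elsewhere. Sigirr, an inhibitory receptor of the family, stood at 20.3, 32.0 and 22.95 CPM in lymphatic members, 5.12, 65.3 and 50.0 CPM in blood members and 0.276, 0.728 and 1.22 CPM elsewhere. Of 19 measured WNT genes (25 named), 3 were higher in members in each library: Tspan12, Fzd4 and Fzd6. With so few genes, both counts are near that share. Fzd4 and Tspan12 form the receptor complex for norrin in retinal vessels. Fzd4 stood at 78.7, 83.3 and 74.6 CPM in lymphatic members, against 251, 137 and 99.9 CPM in blood members, and 1 neonatal blood member held 63% of its UMIs there. Fzd6 stood at 60.1, 90.8 and 152 CPM, against 10.2, 6.53 and 39.97 CPM.

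Ages were compared by summed CPM within lymphatic and within blood members with 6 to 8 selection genes. A gene counted as measured with 30 or more UMIs over both libraries and as differing at 2-fold or more. In lymphatic members, 704 of 7738 genes were higher at 3 weeks than in the neonatal library, 9.1%, and 508 were lower, 6.57%. At 2 months against 3 weeks, 156 of 6450 were higher, 2.42%, and 497 were lower, 7.71%. Over all members 818 of 9238 genes were higher at 3 weeks, 8.85%, and 476 lower, 5.15%. At 2 months 242 of 8432 were higher, 2.87%, and 569 lower, 6.75%. When mitochondrial, ribosomal protein and haemoglobin genes were left out of the CPM total, lymphatic counts at 3 weeks became 474 higher and 731 lower, and the median log2 ratio of all genes was -0.15, against 0.04 with them. A ratio near 1 should be read with that shift in mind.

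Neonatal lymphatic members carried more cell cycle RNA. Of 19 measured cell cycle genes (26 named), 12 were lower at 3 weeks and 0 were higher, with a median log2 ratio of 3 weeks over neonatal of -1.55, against 0.04 for all genes. Over all members 16 of 23 were lower and 0 higher. Top2a, a topoisomerase needed in mitosis, was at 76.2, 15.6 and 0 CPM in neonatal, 3 week and 2 month lymphatic members. It had a UMI in 17 of 28, 4 of 65 and 0 of 24 of them, so most neonatal lymphatic members held it. These numbers of cells were not taken at equal depth, with medians of 34413.5, 18337 and 7534.5 UMIs per lymphatic member. The log2 ratio of Top2a at 3 weeks was -2.29, with counting bounds of -3.05 and -1.59. Cdk1, the mitotic kinase, stood at 36.4, 2.23 and 0 CPM. In the other barcodes Top2a stood at 51.8, 44.7 and 19.8 CPM.

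The count changed with the members and genes that entered. Without members above 3 times the median UMI count of their library, 7 of the 12 cell cycle genes still measured were lower at 3 weeks, and 4 of 8 were when a gene needed 60 UMIs. In blood members only 1 of the 26 cell cycle genes was measured, so the same comparison could not be made there. At 2 months against 3 weeks, none of the 7 measured in lymphatic members differed by 2-fold.

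The imprinted genes H19, Igf2 and Mest were lower at 3 weeks in both kinds of member. In lymphatic members 4 of 15 measured (17 named) were lower at 3 weeks (Mest, H19, Igf2 and Plagl1) and 1 was higher (Igfbp5), with a median log2 ratio of -0.47. At 2 months against 3 weeks, 7 of 15 were lower and none higher, with a median of -0.82. Over all members 6 of 17 were lower and 2 higher at 3 weeks, and 4 of 16 lower and 2 higher at 2 months. In blood members, 338 of 2785 genes were higher at 3 weeks, 12.1%, and 179 were lower, 6.43%. There 9 of 15 growth and imprinted genes were lower and 0 higher, with a median of -1.71, against 0.11 for all genes.

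H19, an imprinted noncoding RNA, stood at 2760, 55.1 and 8.61 CPM in neonatal, 3 week and 2 month lymphatic members. It had a UMI in 28 of 28, 20 of 65 and 3 of 24, counted at unequal depth, and the lowest neonatal cell held 32.4 CPM. Its log2 ratio at 3 weeks over neonatal was -5.65, with counting bounds of -6.00 and -5.32. In blood members H19 stood at 646, 0 and 0 CPM, at least 65.9-fold lower at 3 weeks against a floor of 3 counts in the summed library. The other barcodes stood at 737, 87.1 and 0.627 CPM of H19. Neonatal lymphatic members thus had the highest H19 level of the groups named here, and every group had a lower level at the later ages.

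Igf2, the growth factor beside H19, stood at 522, 32.0 and 2.87 CPM in lymphatic members, and at 256, 78.4 and 70.0 CPM in blood members. Mest, an imprinted hydrolase gene, stood at 437, 35.0 and 14.3 CPM in lymphatic members, and at 159, 6.53 and 0 CPM in blood members. In the other barcodes Igf2 stood at 180, 14.4 and 2.66 CPM and Mest at 143, 23.5 and 5.30 CPM. Igf2bp1 and Igf2bp3 bind the Igf2 message, and both were among the genes named by rule. Igf2bp1 stood at 64.3, 0 and 0 CPM in lymphatic members and Igf2bp3 at 89.7, 18.6 and 0 CPM, against 29.4, 0.439 and 0.0209 CPM of Igf2bp1 and 35.2, 7.16 and 2.99 CPM of Igf2bp3 in the other barcodes.

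Part of the lymphatic list stood higher at 3 weeks. Of the 17 measured genes of the lymphatic list, 8 were higher at 3 weeks than in the neonatal library (Cp, Ccl21a, Sema3d, Nts, Maf, Foxc2, Thy1 and Itga9) and 0 were lower, with a median log2 ratio of 0.97. At 2 months against 3 weeks 1 was higher (Nts) and 2 were lower (Ccl21a and Lyve1). Over all members these counts were the same. The log2 ratio of Ccl21a was 1.56 at 3 weeks over neonatal, with counting bounds of 1.53 and 1.59, and -1.08 at 2 months over 3 weeks. As a mean over cells, the second ratio was -0.67.

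Maf, a transcription factor of valve development, stood at 103, 431 and 396 CPM in lymphatic members. Cp, the copper oxidase ceruloplasmin, stood at 209, 494 and 984 CPM. Nts, the peptide neurotensin, stood at 390, 1215 and 3050 CPM, and 1 cell held 42% of its UMIs at 2 months. Outside the lists, Duox2, an oxidase that makes hydrogen peroxide, stood at 7.62, 66.2 and 152 CPM and had a UMI in 7 of 28, 37 of 65 and 10 of 24 lymphatic members. Lrg1, a secreted glycoprotein of the venous list, stood at 61.8, 516 and 749 CPM, against 0.954, 0.233 and 1.18 CPM in the other barcodes. Its UMIs were found in 20 of 28, 59 of 65 and 17 of 24 lymphatic members.

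Icam1 and Cxcl1, genes of inflamed vessels, were lower at 3 weeks in lymphatic members. In lymphatic members 6 of 13 measured leukocyte adhesion genes (17 named) were lower (Sele, Selp, Ackr1, Vcam1, Cxcl1 and Icam1) and 2 were higher (Cxcl10 and Icam2), with a median log2 ratio of -0.98. Over all members 5 of 14 were lower and 2 higher. Without Prox1-only members 8 adhesion genes were measured, of which 2 were lower (Cxcl1 and Icam1) and 4 higher, and the median was 0.74. The direction of the list thus turned on these cells. Icam1, the integrin ligand that lets leukocytes attach, stood at 2449, 354 and 390 CPM in lymphatic members. It had a UMI in 26 of 28, 55 of 65 and 20 of 24, with cell medians of 2417, 240 and 250 CPM, so its difference held for the typical cell. Without Prox1-only members its log2 ratio at 3 weeks over neonatal was -2.56. In blood members Icam1 stood at 2049, 895 and 1139 CPM, with a log2 ratio at 3 weeks over neonatal of -1.20, or -0.78 without members that carried marks of another cell type. The other barcodes held 327, 212 and 181 CPM of Icam1.

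Cxcl1, a neutrophil chemokine, stood at 572, 82.6 and 132 CPM in lymphatic members, against 843, 503 and 578 CPM in the other barcodes. Without Prox1-only members the neonatal lymphatic level of Cxcl1 was 310 CPM. Selp, the P-selectin of venules, stood at 275, 64.7 and 31.6 CPM, but in only 4, 4 and 5 lymphatic members. Sele, the E-selectin, had UMIs in 3, 1 and 0 of them. The selectin values therefore describe a few cells.

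H2-K1 and Ly6e, of the interferon and MHC list, stood higher at each later age in lymphatic members. In lymphatic members 5 of 21 measured interferon and MHC genes (27 named) were higher at 3 weeks and 1 was lower, with a median of 0.40. At 2 months against 3 weeks 7 of 20 were higher (Gbp2, Irf7, Ly6e, H2-K1, Psmb9, Tap1 and Psmb8) and 1 was lower (Ly6c1), with a median of 0.86, against -0.08 for all genes. Without members carrying marks of another cell type 4 of 17 were higher. With selection after thinning 6 of 24 were higher and 5 were lower. Over all members 8 of 23 were higher at 3 weeks and 4 of 22 at 2 months, with 0 lower in either. Without Prox1-only members 8 of 19 were higher at 3 weeks in lymphatic members and 0 lower. Leaving out members above 3 times the median UMI count gave 4 of 20 higher and 3 lower there.

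H2-K1, a classical MHC class I heavy chain, stood at 201, 511 and 1159 CPM in lymphatic members. Cell medians of H2-K1 were 153, 450 and 1140 CPM, and the lowest 2 month cell held 332 CPM. Its log2 ratio was 1.35 (bounds 1.13 and 1.57) at 3 weeks over neonatal and 1.18 (1.0004 and 1.36) at 2 months over 3 weeks. Blood members held 359, 852 and 1189 CPM of H2-K1, and the other barcodes 93.5, 843 and 1145 CPM. The age order of H2-K1 was thus shared with the rest of the skin.

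Ly6e, an interferon-induced surface protein, stood at 137, 509 and 1328 CPM in lymphatic members, at 430, 1159 and 1219 CPM in blood members and at 65.3, 218 and 246 CPM in the other barcodes. It was found in every lymphatic member at 3 weeks and 2 months, and in 22 of 28 in the neonatal library. Without Prox1-only members its neonatal lymphatic level was 90.96 CPM. Psmb9, a subunit of the immunoproteasome, stood at 15.23, 12.6 and 66.0 CPM in lymphatic members.

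**Figure D4:**
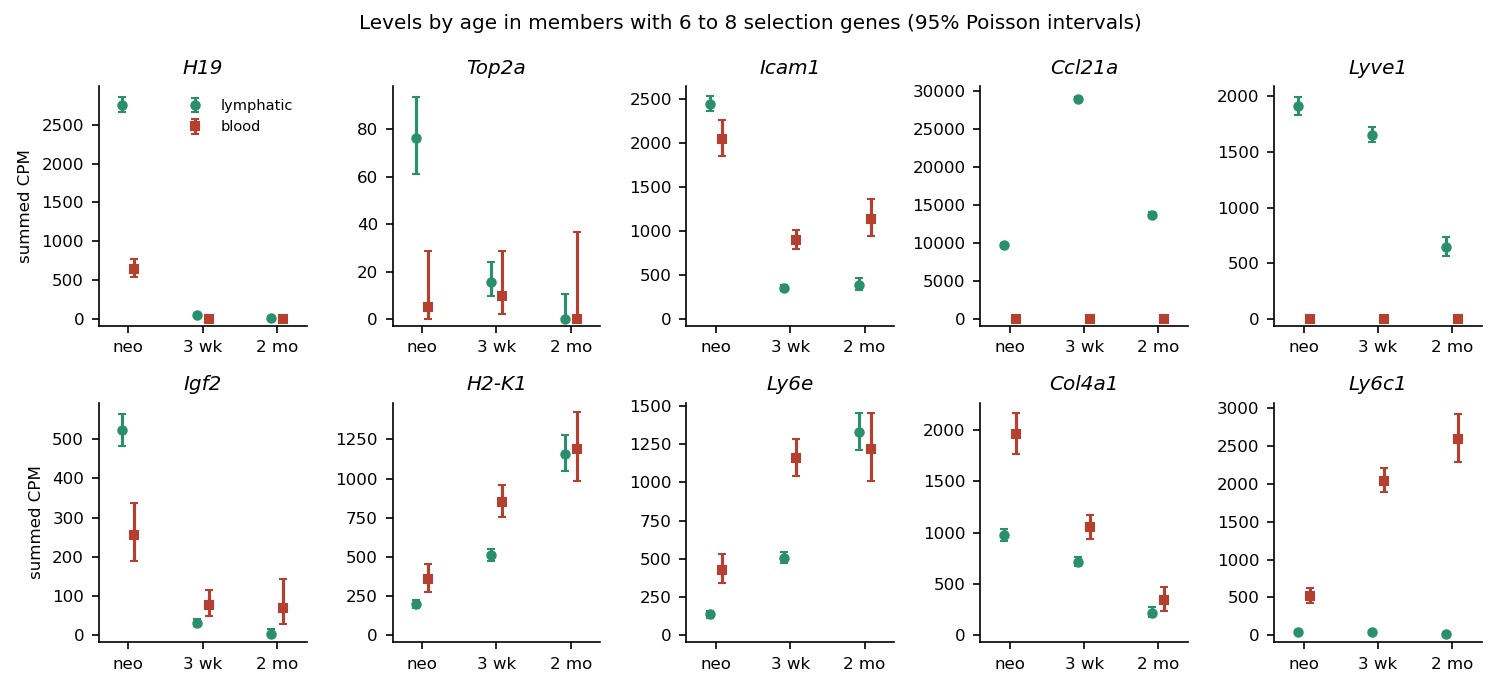
Summed CPM (vertical axis, from 0, with 95% Poisson intervals) of 10 genes at 3 ages (horizontal axis) in lymphatic members (green circles) and blood members (red squares) with 6 to 8 selection genes. H19, Igf2, Top2a and Icam1 are high in neonatal lymphatic members, H2-K1 and Ly6e stand higher at each later age in lymphatic members, and Ccl21a and Lyve1 are near 0 in blood members at all 3 ages.

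Basement membrane collagen was lower at 2 months in both kinds. In lymphatic members 4 of 18 measured basement membrane genes (19 named) were lower at 2 months than at 3 weeks (Sparcl1, Col4a1, Col4a2 and Sparc) and 0 were higher, with a median log2 ratio of -0.43. In blood members 61 of 2303 genes were higher at 2 months, 2.65%, and 169 were lower, 7.34%. TMM scaling gave 20 higher and 289 lower there, and a minimum of 10 UMIs gave 444 higher and 286 lower, so neither the counts nor the split are firm. There 6 of 16 measured basement membrane genes were lower (Col15a1, Hspg2, Col4a1, Col4a2, Sparc and Nid1) and 0 were higher, with a median of -0.54. Over all members 5 of 19 were lower and 0 higher.

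Col4a1 and Col4a2 are the paired chains of the main collagen IV network. Col4a1 stood at 975, 717 and 221 CPM in lymphatic members, and at 1957, 1051 and 340 CPM in blood members. Col4a2 stood at 487, 330 and 80.3 CPM in lymphatic members, and at 1199, 598 and 200 CPM in blood members. The log2 ratio of Col4a1 at 2 months over 3 weeks was -1.70 (bounds -2.05 and -1.36) in lymphatic members and -1.63 (-2.18 and -1.12) in blood members. Mural barcodes held 2192, 358 and 250 CPM of Col4a1 and the other barcodes as a whole 453, 237 and 186 CPM. Endothelial cells of both kinds thus had the lowest level at 2 months, as did the mural barcodes.

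Part of the arterial genes stood higher at 3 weeks in blood members. Of 9 measured arterial genes (16 named) 5 were higher (Stmn2, Gja4, Efnb2, Sema3g and Fbln5) and 0 were lower, with a median log2 ratio of 1.35, against 0.11 for all genes. Over all members 7 of 15 were higher and 0 lower. Sema3g, a secreted semaphorin of arteries, stood at 46.1, 251 and 280 CPM in neonatal, 3 week and 2 month blood members and was found in 4 of 14, 13 of 23 and 6 of 10. Gja4, the gap junction protein connexin 37, stood at 30.7, 94.7 and 130 CPM, and mural barcodes held 106, 34.8 and 48.2 CPM of Gja4. Whether more arterial cells, more RNA per arterial cell or RNA of mural cells entered the sum cannot be told apart at these cell numbers. At least 3 mural genes had a UMI in 3 of 14 neonatal and 11 of 23 3 week blood members.

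Capillary genes went the other way in part. Of 8 measured capillary genes (13 named) 3 were lower at 3 weeks in blood members (Aqp1, Meox2 and Gpihbp1) and 1 was higher (Cxcl12). Of all genes 6.43% were lower and 12.1% higher there. Over all members 2 of 11 were lower and 1 higher, where 5.15% of all genes were lower and 8.85% higher. The counts of higher genes are near these shares, and all of them rest on few genes. Gpihbp1, which carries lipoprotein lipase to the capillary lumen, stood at 794, 258 and 20.0 CPM in blood members and was found in 13 of 14, 11 of 23 and 2 of 10. In lymphatic members Gpihbp1 stood at 157, 269 and 258 CPM, so its order over the ages differed between the 2 kinds, a difference that was not tested.

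Other genes of blood members also differed between ages. Ly6c1 had a log2 ratio of 1.98 at 3 weeks over neonatal (bounds 1.67 and 2.30), and 2.02 without members carrying marks of another cell type. Ly6a, the stem cell antigen Sca-1, stood at 184, 1368 and 1969 CPM in blood members. In the other barcodes Ly6a stood at 182, 1109 and 1034 CPM and Ly6c1 at 42.5, 462 and 526 CPM, so the later ages were higher there too. Clu, the secreted chaperone clusterin, had 0 UMIs in all 14 neonatal blood members and stood at 944 and 1059 CPM at 3 weeks and 2 months, found in 20 of 23 and 6 of 10 cells. This is at least 61.4-fold higher at 3 weeks against a floor of 3 counts in the neonatal sum. Srgn, the proteoglycan serglycin, stood at 76.9, 754 and 1079 CPM in blood members, and in 23 of 23 cells at 3 weeks. Mural barcodes held 10.8, 48.6 and 33.6 CPM of Clu and 4.80, 5.59 and 11.6 CPM of Srgn, below the 3 week and 2 month levels of both genes in blood members.

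Markers of other cells and of digestion stress moved with the same comparisons. In lymphatic members 8 of 9 measured fibroblast markers were higher at 3 weeks than in the neonatal library and 7 of 9 were lower at 2 months than at 3 weeks. Their summed level was 849, 7589 and 2789 CPM, with cell medians of 371, 1201 and 584 CPM. The highest cell, at 3 weeks, held 156785 CPM. All 7 measured keratinocyte markers were higher at 3 weeks, at a summed level of 23.7, 679 and 1567 CPM and cell medians of 6.51, 109 and 81.7 CPM. Mural markers summed to 118, 631 and 34.4 CPM in lymphatic members, with Rgs5, Tagln, Myh11, Des, Cspg4 and Cnn1 at 0 at 2 months.

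In blood members fibroblast markers summed to 2634, 16454 and 779 CPM, with Pdgfra and Dpt at 0 at 2 months. Mural markers summed to 1798, 4366 and 1929 CPM, with Cnn1 at 0 at each age. Erythroid markers summed to 15.4, 10795 and 0 CPM in blood members, and the highest single cell at 3 weeks held 109141 CPM of them. The part of these RNAs in the counts of higher and lower genes was not tested.

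Most immediate early and heat shock genes, which digestion can induce, were higher at 3 weeks in lymphatic members. In lymphatic members 12 of 18 were higher and 0 lower, with a median log2 ratio of 1.35, and at 2 months against 3 weeks 0 of 18 differed. Over all members 6 of 18 were higher at 3 weeks and 2 of 18 at 2 months. Fos, an immediate early factor, stood at 376, 2263 and 2083 CPM in lymphatic members, with cell medians of 131, 1744 and 1513 CPM. The other barcodes held 1236, 2282 and 3660 CPM of Fos. Hspa1a, an inducible heat shock protein, stood at 602, 3011 and 4631 CPM in lymphatic members, against 4295, 4047 and 3806 CPM in the other barcodes. The neonatal lymphatic members thus stood below the rest of their library in both genes. Klf2, a flow-responsive factor that digestion can also induce, stood at 401, 1042 and 953 CPM in lymphatic members.

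**Figure D5:**
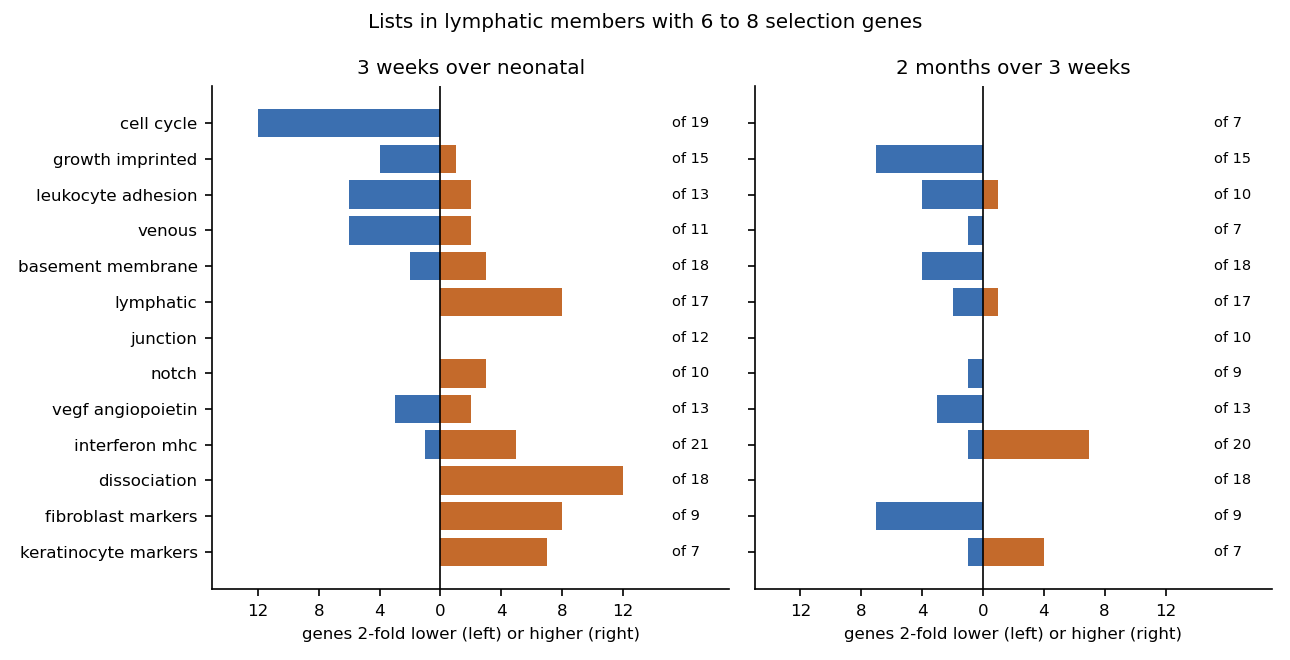
Number of measured genes of 13 lists at least 2-fold lower (blue, left of 0) or higher (orange, right of 0) in lymphatic members with 6 to 8 selection genes, at 3 weeks over neonatal (left panel) and 2 months over 3 weeks (right panel); the numbers at the right give the genes measured. At 3 weeks 12 of 19 cell cycle genes are lower and 12 of 18 immediate early and heat shock genes (labelled dissociation) are higher, with 8 of 9 fibroblast and 7 of 7 keratinocyte markers higher in the same comparison.

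No measured gene of the junction list differed by 2-fold in lymphatic members. Of 12 measured junction genes (15 named) none differed at 3 weeks over neonatal, where 9.1% of all genes were higher and 6.57% lower. None of 10 did at 2 months over 3 weeks, where 2.42% of all genes were higher and 7.71% lower. With so few genes, both counts are near these shares. In blood members 4 of 10 were higher at 3 weeks (Gja4, Tjp1, Jup and Jam2), where 12.1% of all genes were, and none of 10 differed at 2 months. Cldn5, a tight junction gene of the selection rule, is not in these counts and stood at 740, 1481 and 1501 CPM in lymphatic members. Without Prox1-only members the neonatal level of Cldn5 was 800 CPM. Of 9 measured interleukin 1 genes, 2 were lower at 3 weeks in lymphatic members (Traf6 and Tollip) and 0 higher, and none of 8 differed at 2 months. Of 12 measured WNT genes 1 was higher (Axin2) and 1 lower (Rspo3) at 3 weeks, near the shares of all genes (9.1 and 6.57%), and none of 11 differed at 2 months.

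Efnb2, the ephrin of arteries and lymphatic valves, stood at 61.8, 204 and 250 CPM in lymphatic members, and Dll4, a Notch ligand, at 48.2, 147 and 158 CPM. Sox18, a factor that acts before Prox1 in the embryo, stood at 104, 284 and 192 CPM. In the other barcodes Sox18 went the other way, at 33.5, 6.43 and 0.575 CPM. Nr2f2, the venous factor COUP-TFII that works with Prox1, stood at 195, 642 and 385 CPM in lymphatic members, against 195, 147 and 170 CPM in blood members.

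Further genes were named by rule over all members. Gap43, a growth-associated protein best known from neurons, was named as lower at 2 months than at 3 weeks and stood at 96.5, 150 and 22.95 CPM in lymphatic members. Stc1, the secreted glycoprotein stanniocalcin 1, was named at 3 weeks over neonatal and stood at 336, 72.9 and 57.4 CPM in lymphatic members, and at 405, 170 and 39.97 CPM in blood members. Of 10 genes named as higher at 2 months, Ncam2, Pappa2 and Slc26a7 had UMIs in 3, 5 and 3 of the 47 members, and none of these 3 genes had a UMI in a 2 month member with 6 to 8 selection genes. Chodl, Epn3 and Draxin, named as higher at 3 weeks, had UMIs in 4 members each and in none with 6 to 8. These values belong to the lower edge of the rule.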

How the data were processed

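The 3 libraries hold droplet single-cell RNA counts of dorsal skin, 1 per age. The authors deposited raw UMI counts per gene and barcode for 27998 genes, whole numbers with no normalization. Per the submitters' processing notes, the build was mm10 and the tools included Seurat 2.0 and Cell Ranger 3.0.2; how barcodes were chosen is not given in the sources used here.

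The members, gene lists (28, naming 395 genes, 392 of them in the files) and comparisons were chosen with earlier results of these data known. Counts were summed over the chosen cells of each library and divided by the library's sum to give CPM, each with a 95% exact Poisson interval. Shares have Clopper-Pearson intervals. A ratio has exact conditional binomial bounds, and where fewer than 3 UMIs were counted, 3 were used as a floor. A fold of 2 or more in a gene with 30 or more UMIs over both profiles counted as a difference. No p-value was computed, since there is 1 library per age and cells are not replicates. Shares were also computed after thinning each cell to 1500 UMIs. Mural, keratinocyte and fibroblast barcodes were picked by marker rules. On simulated data the ratio step recovered 100% of changed genes called for the 3 week over neonatal comparison and 99.5% for the 2 month over 3 week comparison, and 0.664% and 2.39% of unchanged genes passed 2-fold in them. The simulation used sums over all members, changes set larger than 2-fold and counting error only, with no variation between cells. These rates therefore check the arithmetic and are not error rates of the gene counts above.

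Named genes are those of the lists, the 15 highest over other barcodes, the 10 highest and lowest per age comparison (by the counting bound nearest no change, among genes at least 2-fold above the other barcodes) and the 10 highest in lymphatic members; the report describes only some of these. Doublets were not removed in the values of the report. Leaving them out was an alternative, called with Scrublet (scanpy 1.11.5, expecting 6%). Its cut-off took 211 and 348 barcodes at 3 weeks and 2 months but only 0.0253% in the neonatal library, where the top-scoring 6% (475) were used. These held 10, 2 and 0 members. Other alternatives were the number of selection genes, the mitochondrial limit, thinning before selection, leaving out deep members (over 3 times the median) or members with marks of another cell type, TMM scaling (edgeR 4.0.16), other CPM totals, a mean over cells, other UMI minimums and leaving out Prox1-only members. Scripts used Python 3.11.15, numpy 2.4.6 and scipy 1.17.1.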

Additional observations from a re-analysis of the deposited data

How the results depend on the processing

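Endothelial shares and counts of genes depended on the selection rule. With at least 2 of 8 selection genes the shares were 2.26, 2.78 and 1.15% in the neonatal, 3 week and 2 month libraries, the Prox1 or Mmrn1 shares 20.7, 38.9 and 37.4%, genes higher at 2 months 439 and genes higher in members 590. With at least 6 of 8, added after seeing the data, the shares were 0.531, 0.989 and 0.364% and genes higher at 2 months 153. Selection after thinning gave 0.422% neonatal and 0.924% at 3 weeks, and 126 higher and 361 lower genes at 2 months. Leaving out members with marks of another cell type gave 0.455% neonatal and 0.944% at 3 weeks, Prox1 or Mmrn1 shares of 85.7% at 3 weeks and at 2 months, and 159 higher and 376 lower genes at 2 months. At 3 weeks 779 genes were lower as a mean over cells. A minimum of 10 UMIs gave 1398 higher and 847 lower genes at 3 weeks and 553 higher at 2 months. A minimum of 60 gave 502 and 281, then 124 higher and 286 lower. No minimum gave 1432 and 1038, then 1911 higher and 730 lower, 72.4% higher against 29.8%. In blood members at 2 months a minimum of 10 gave 60.8% higher against 26.5%. These minimums change how many genes enter. For the other shifts the cause was not tested.

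Scaling moved the split at 3 weeks. Without mitochondrial, ribosomal protein and haemoglobin genes in the total, 607 genes were higher and 706 lower over all members, 46.2% higher against 63.2%. In lymphatic members the share higher was 39.3% against 58.1%, and in blood members 49.1% against 65.4%. With TMM, blood members at 2 months had 20 genes higher and 289 lower, 6.47% against 26.5%, with a median log2 ratio of -0.28.

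Each log2 ratio of a named gene (439 ratios) was checked under the alternatives, and 8 ratios turned round in 10 checks. With at least 4 of 8 selection genes the ratios at 2 months over all members were -0.70 for Nrn1, -0.12 for Pappa2, -0.93 for Slc26a7 and -0.56 for nonagouti (gene symbol a). Without deep members Nrn1 stood at -0.39. In lymphatic members Ly6a at 3 weeks was -0.037 after thinning and -0.85 without marked members, and Ly6c1 at 2 months was 1.99 without them. Without Prox1-only members, added after seeing the data, Rgcc and Vwf at 3 weeks were 1.35 and 1.14. In another 754 checks a ratio moved beyond its counting bounds and in 3930 it did not. No paired analysis was possible because each age has 1 library and no replicate numbers are shared. Low counts limit the blood members most, with 100075 UMIs at 2 months.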

Other observations

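The sex-linked transcripts were read outside any comparison. Xist, the RNA of the inactive X chromosome of female cells, had 919 UMIs among the 57 neonatal members, in 37 of them, and 0 UMIs among the 122 members at 3 weeks and the 47 at 2 months. Ddx3y, a gene of the Y chromosome, stood at 35.8, 104.9 and 105.6 CPM in neonatal, 3 week and 2 month members, with a UMI in 18 of 57, 81 of 122 and 23 of 47. Between the neonatal and the later libraries, age and the sex of the cells cannot be told apart in these members. The 3 week and 2 month members were alike in the summed levels of both transcripts.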
